A study of Mus musculus with 12 samples.

Results

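The 9 genes *Prox1*, *Dsp*, *C1ql2*, *C1ql3*, *Tdo2*, *Calb1*, *Lct*, *Dock10* and *Plk5* mark granule cells of the dentate gyrus in the mouse hippocampus. They were taken from a given list of symbols, matched to Ensembl gene IDs, out of the 37991 genes in the count files, and the rule sets no threshold on a measured value. Hippocampi came from 6 mice labelled *Gadd45a*-WT and 6 labelled *Gadd45a*-KO, siblings from crosses between heterozygous carriers, C57BL/6N by their labels and 6 to 7 months old. All 12 animals had been trained in the passive avoidance (PA) test, in which a mouse learns to stay out of a compartment where it received a foot shock, and were killed 1 h later. In the knockout, per the study's methods, a neomycin cassette stands in place of exons 1 to 3 of *Gadd45a*, while exon 4 is still present, in every cell of the animal. No untrained mice are among the 12, so no comparison here bears on the training itself.

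Granule cells are the principal neurons of the dentate gyrus, the first relay of the hippocampal circuit. They receive input from the entorhinal cortex through the perforant path, pass it on through the mossy fibres to hilar mossy cells and CA3 pyramidal cells, and are still generated in the adult. A whole hippocampus also holds the pyramidal cells of the CA fields, interneurons and glia, so a count of granule cell transcripts in such a sample depends both on how many granule cells it holds and on how much of each transcript a cell carries. In these bulk samples, fewer granule cells and less RNA per granule cell cannot be told apart.

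Transcripts of the 9 markers were present in all 12 libraries, each marker with at least 318 reads in every library, and no marker differed between the labels at 1% FDR. Reads on genes ranged from 44594261 to 55540601 per library, and 16399 genes were tested. The count of *Gadd45a* was higher under the label *Gadd45a*-KO, at 2.58 ± 0.48 CPM (counts-per-million, scaled with TMM factors) for the label *Gadd45a*-WT and 21.4 ± 1.07 CPM for *Gadd45a*-KO (SD, n = 6 each). Counts per gene do not separate exon 4, which is still present, from the deleted exons, so this gene does not check the labels, which name the libraries throughout. Among them, 3 stood apart on marker lists, all labelled *Gadd45a*-KO. Replicate 4 was low on granule cell genes, whereas replicates 2 and 3 were high on thalamic genes and replicate 3 was also high on oligodendrocyte genes. Values without these libraries are given beside the results that move with them.

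Per kilobase of exon, the granule cell markers spanned a wide range of levels. *Prox1* and *C1ql3* had the highest medians over the 12 libraries, 37.2 and 37.0 RPKM (CPM divided by the length of the annotated exons in kilobases). *C1ql2* followed with 31.0 and *Calb1* with 27.5 RPKM. *Lct* had 17.7, *Dock10* 14.2, *Plk5* 12.8 and *Dsp* 11.9 RPKM. *Tdo2*, at 3.11 RPKM, was the lowest, and it was the one member whose range did not overlap that of its neighbour in the order. The other 7 neighbouring pairs overlapped over the 12 libraries, although *Calb1* was above *Lct*, and *Lct* above *Dock10*, in each of the 12. For comparison, the median over all tested genes was 4.90 RPKM, and 91.8% of the tested genes had a lower median than *Prox1*. Counted over the longest annotated transcript, 5 of the 9 kept their rank, with *Calb1* moving above *C1ql2* and *Plk5* above *Dock10*. The medians within either label gave the same order over the union of exons.

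**Figure D1:**
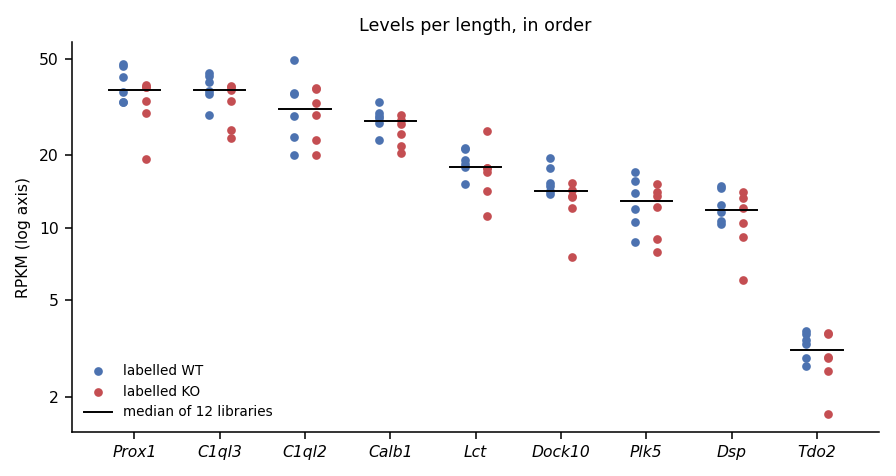
Levels of the 9 markers in RPKM on a log axis, in order of their median over 12 libraries (black line), with 1 point per library, blue for the label *Gadd45a*-WT and red for *Gadd45a*-KO. Medians fall from 37.2 for *Prox1* to 3.11 for *Tdo2*, and the clouds of neighbours overlap except between *Dsp* and *Tdo2*.

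*Prox1* (ENSMUSG00000010175, chromosome 1, 191945660 to 191994559, minus strand, NCBIM37) encodes a homeobox transcription factor that establishes and keeps granule cell identity. For the label *Gadd45a*-WT, replicates 1 to 6 gave 173, 193, 136, 150.0, 137 and 196 CPM. For *Gadd45a*-KO they gave 160.3, 158, 123, 79.1, 157 and 138 CPM. All 6 libraries of the latter lay below the *Gadd45a*-WT mean, but the groups overlapped, and replicate 4 was the lowest of the 12. The means were 164 ± 27.0 and 136 ± 31.4 CPM (SD, n = 6 each), a log2 fold change of -0.27 (standard error (SE) 0.15, adjusted p = 0.484; all adjusted p-values of gene differences are from edgeR, by Benjamini-Hochberg over the tested genes). Without replicate 4 labelled *Gadd45a*-KO the log2 fold change was -0.15 (edgeR, adjusted p = 0.559).

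*Prox1* has an overlapping gene on the other strand, the lincRNA *Gm17566* (ENSMUSG00000079045, chromosome 1, 191994175 to 192041157, plus strand, NCBIM37), whose annotation covers part of the *Prox1* exon at the 5′ end. *Gm17566* had 167 to 365 reads per library, and since the counting used the strand, its reads are kept apart from those of *Prox1*. Its mean was 6.18 ± 0.91 CPM for the label *Gadd45a*-WT and 5.77 ± 1.31 CPM for *Gadd45a*-KO (SD, n = 6 each). The lowest value of the 12, 3.44 CPM, was again in replicate 4 labelled *Gadd45a*-KO.

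*Dsp* (ENSMUSG00000054889, chromosome 13, 38243197 to 38290446, plus strand) encodes desmoplakin, which ties intermediate filaments to cell junctions and in the hippocampus marks the granule cell layer. Its lowest, median and highest values were 99.3, 116 and 142 CPM in the libraries labelled *Gadd45a*-WT, and 58.5, 108 and 135 CPM in those labelled *Gadd45a*-KO. The ranges overlapped broadly, with 3 of 6 *Gadd45a*-KO libraries below the *Gadd45a*-WT median. The log2 fold change was -0.19 (SE 0.17, edgeR, adjusted p = 0.707) and -0.06 without replicate 4. A short gene on the other strand, *Gm10129*, overlaps *Dsp* and had 0 to 2 reads per library.

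*C1ql2* and *C1ql3* encode secreted C1q-like proteins that granule cells release at mossy fibre synapses, where they bind neurexins and recruit kainate receptors. The pair are related in sequence, so reads from one could in principle be counted on the other. The longest run of identical bases between the annotated transcripts was 38, shorter than the reads of 51 bases, and no 51-base window of either transcript matched the other with 2 or fewer mismatches. The stretch of 150 coding bases around that run is shown to let the pair be compared, with the identical run in capitals. It lies in exon 1 of 2 of each gene, at chr1:122238143-122238292 on the plus strand for *C1ql2* and chr2:12931973-12932122 on the minus strand for *C1ql3* (NCBIM37), and 75.3% of its bases are the same in both.
C1ql2: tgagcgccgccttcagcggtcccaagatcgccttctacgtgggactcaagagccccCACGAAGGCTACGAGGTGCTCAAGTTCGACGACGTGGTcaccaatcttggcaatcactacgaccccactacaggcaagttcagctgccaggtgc
C1ql3: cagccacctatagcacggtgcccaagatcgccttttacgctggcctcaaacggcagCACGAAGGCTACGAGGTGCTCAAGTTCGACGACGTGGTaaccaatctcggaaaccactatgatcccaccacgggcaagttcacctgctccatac

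*C1ql2* (ENSMUSG00000036907, chromosome 1, 122237159 to 122239748, plus strand) varied most among the markers. Replicates 1 to 6 gave 98.4, 71.5, 47.2, 57.8, 39.7 and 71.8 CPM for the label *Gadd45a*-WT, a span that takes in the 75.2, 74.9, 46.1, 39.8, 58.3 and 65.6 CPM for *Gadd45a*-KO. Its standard deviation within a label was 0.43 on the log2 CPM scale, larger than that of 94.2% of all tested genes. The log2 fold change was -0.10 (SE 0.21, edgeR, adjusted p = 0.907; 95% interval -0.54 to 0.34), and it became 0.07 without replicate 1 labelled *Gadd45a*-WT and 0.00 without replicate 4 labelled *Gadd45a*-KO.

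*C1ql3* (ENSMUSG00000049630, chromosome 2, 12925084 to 12933374, minus strand) varied less, with a standard deviation within a label of 0.27 (log2 CPM). Replicates 1 to 6 gave 108, 98.7, 72.5, 91.3, 88.3 and 105 CPM for the label *Gadd45a*-WT, and 94.5, 82.3, 62.6, 57.9, 91.7 and 95.7 CPM for *Gadd45a*-KO. The lowest 2 of the latter, replicates 3 and 4, lay below all 6 of the other label. The log2 fold change was -0.22 (SE 0.13, edgeR, adjusted p = 0.520) and -0.13 without replicate 4. Of the 11 listed relatives and partners of these proteins, 10 were tested and 0 passed 1% FDR by edgeR or DESeq2, with 2 at an unadjusted edgeR p under 0.05. Among them, *Grik2*, a kainate receptor subunit, had a log2 fold change of -0.24 (SE 0.08, edgeR, adjusted p = 0.131), and *Grik4*, another subunit, 0.15 (SE 0.10, edgeR, adjusted p = 0.579). The other tested partners, among them the neurexins and the Bai adhesion receptors, lay between these values. *C1ql4* was not tested, with at most 3 reads in any library.

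*Calb1* (ENSMUSG00000028222, chromosome 4, 15808411 to 15835211, plus strand) encodes calbindin, a calcium buffer that granule cells share with part of the CA1 pyramidal cells and with some interneurons. It was the steadiest of the 9. Replicates 1 to 6 gave 138, 132, 112, 139.8, 161 and 144 CPM for the label *Gadd45a*-WT, and 135, 118, 98.4, 105, 130.4 and 142 CPM for *Gadd45a*-KO. The lowest library of the 12 was replicate 3 labelled *Gadd45a*-KO, not replicate 4, and 5 of the 6 libraries of that label lay below the *Gadd45a*-WT mean. The log2 fold change of -0.18 had the smallest SE of the 9 (0.09, edgeR, adjusted p = 0.435; 95% interval -0.38 to 0.02), and it was -0.10 without replicates 2 and 3 labelled *Gadd45a*-KO.

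The enzyme genes were *Tdo2* and *Lct*. *Tdo2* (ENSMUSG00000028011, chromosome 3, 81761012 to 81780124, minus strand) encodes tryptophan dioxygenase, which opens the kynurenine pathway of tryptophan breakdown. It had 10.3, 13.0 and 14.4 CPM as lowest, median and highest value in the libraries labelled *Gadd45a*-WT and 6.54, 11.2 and 14.2 CPM in those labelled *Gadd45a*-KO, with a log2 fold change of -0.18 (SE 0.15, edgeR, adjusted p = 0.707) that became -0.05 without replicate 4, its lowest library. Its values rest on 318 to 776 reads per library, the fewest among the markers.

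*Lct* (ENSMUSG00000026354, chromosome 1, 130181333 to 130224895, minus strand) encodes lactase, the milk-sugar hydrolase of the intestine, whose transcript also marks the granule cell layer. Its values ran from 96.9 to 137 CPM, with a median of 120.0, for the label *Gadd45a*-WT. Libraries labelled *Gadd45a*-KO ran from 71.4 to 161 CPM, with a median of 111, and thus held both the lowest and the highest value of the 12, in replicates 4 and 1. The log2 fold change was -0.13 (SE 0.15, edgeR, adjusted p = 0.799) and -0.03 without replicate 4.

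*Dock10* and *Plk5* belong to signalling families. *Dock10* (ENSMUSG00000038608, chromosome 1, 80497648 to 80755128, minus strand) encodes an exchange factor that activates Rac1 and Cdc42, GTPases that shape dendritic spines. Replicates 1 to 6 gave 123, 141, 113, 119, 111 and 156 CPM for the label *Gadd45a*-WT, and 109, 115, 96.9, 60.9, 123 and 108 CPM for *Gadd45a*-KO. All 6 of the latter were below the *Gadd45a*-WT mean and 4 of them below every *Gadd45a*-WT library. *Dock10* had the largest difference of the 9, with means of 127 ± 17.7 and 102 ± 21.9 CPM (SD, n = 6 each), a log2 fold change of -0.32 (SE 0.14, 95% interval -0.61 to -0.03) and an adjusted p of 0.307 in edgeR. A two-sided exact permutation test of its log2 CPM alone gave p = 0.0390 over the 924 assignments of the libraries to the labels, and p = 0.0628 when CPM were scaled by library totals. It was 1 of 9 genes tested in this way, and no p was adjusted over the 9. Without replicate 4 the log2 fold change was -0.20 (edgeR, adjusted p = 0.289). With an offset for gene length it was -0.27 (edgeR, adjusted p = 0.410), and *Prox1*, at -0.28, then had the largest difference of the 9.

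*Plk5* (ENSMUSG00000035486, chromosome 10, 79819204 to 79828234, plus strand) encodes a polo-like kinase family member expressed in neurons. It ranged from 23.4 to 45.7 CPM (median 34.6) for the label *Gadd45a*-WT and from 21.2 to 40.4 CPM (median 34.3) for *Gadd45a*-KO. The groups overlapped nearly fully, and the log2 fold change of -0.12 (SE 0.18, edgeR, adjusted p = 0.858) became -0.02 without replicate 4 labelled *Gadd45a*-KO.

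**Figure D2:**
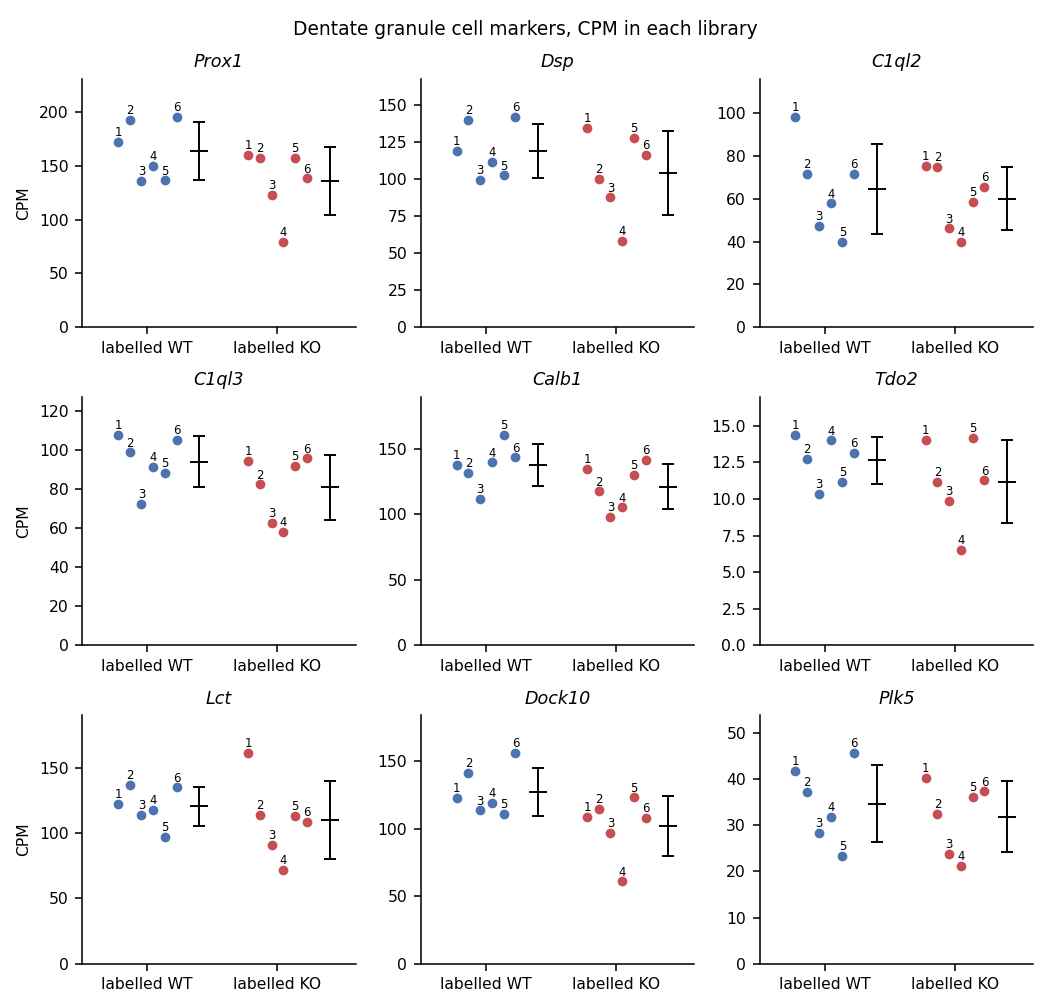
CPM of each marker in every library, with the replicate number above each point and the mean ± SD (n = 6) as a bar to its right, blue for the label *Gadd45a*-WT and red for *Gadd45a*-KO. All 9 ranges overlap between the labels, and replicate 4 labelled *Gadd45a*-KO is the lowest point in 7 of the 9 panels.

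Considered as a list, the 9 markers sat slightly lower in the libraries labelled *Gadd45a*-KO without any of them passing the test. At 1% FDR, 0 of 9 were lower and 0 of 9 higher by edgeR, against 2.62% and 0.0244% of all 16399 tested genes. DESeq2 likewise called 0 of 9, and at an unadjusted p under 0.05 each tool had 1 of 9, *Dock10*, lower, against 9.35% of all tested genes lower and 4.34% higher at that p in edgeR. The values of the 2 labels overlapped for 9 of 9, and 3.31% of all tested genes showed no overlap. The log2 fold changes ran from -0.32 to -0.10 with a median of -0.18, beside a median of 0.00 over all tested genes. All 9 were below 0, as were 48.2% of all tested genes, and all 9 were at -0.10 or lower, as were 17.5%. The members move together across libraries, so these 9 signs are not 9 separate observations.

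A single library carried most of the shift of that median. In replicate 4 labelled *Gadd45a*-KO the 9 genes stood at 0.516 (*Dsp*) to 0.847 (*Calb1*) times the mean of the other 5 libraries of its label, and 8 of 9 were at least 30% below that mean, against 5.06% of all tested genes. It was the lowest of the 12 libraries for 7 of 9, against 10.9% of all tested genes. Without it the median log2 fold change of the markers was -0.06 and 8 of 9 were below 0, beside 45.0% of all tested genes, and 0 of 9 passed 1% FDR. Summed over the 9 genes, replicate 4 had 501 CPM, while the other libraries labelled *Gadd45a*-KO had 640 (replicate 3) to 923 and those labelled *Gadd45a*-WT 733 to 1008. Its 49219090 reads on genes and its 12.1% of reads without a gene lay inside the range of the other libraries. Without replicates 2 and 3 labelled *Gadd45a*-KO, the libraries high on thalamic genes, the log2 fold changes ran from -0.35 (*Dock10*) to -0.04 (*Plk5*), with a median of -0.12.

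**Figure D3:**
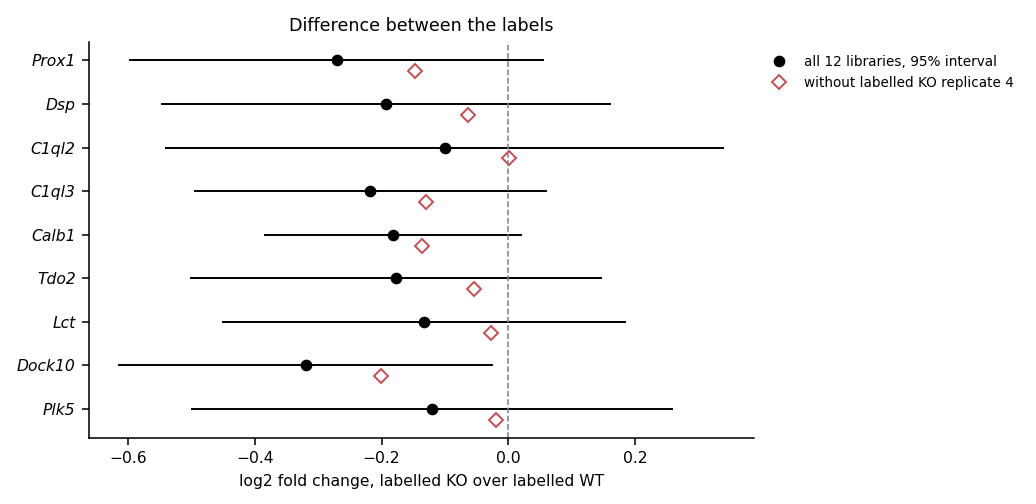
Log2 fold change of each marker, *Gadd45a*-KO over *Gadd45a*-WT by label, from edgeR with all 12 libraries (black, with its 95% interval) and without replicate 4 labelled *Gadd45a*-KO (open red). All black points lie left of 0, the interval of *Dock10* alone excludes 0, and each open point lies nearer to 0 than its black one.

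Within a label the markers rose and fell together from animal to animal. Over the 6 libraries labelled *Gadd45a*-WT, log2 CPM correlated positively in 33 of the 36 pairs, with a median r of 0.756, and 13 pairs (36.1%) had r above 0.8, against 3.85% of all pairs of tested genes. Over the 6 labelled *Gadd45a*-KO, 36 of 36 pairs were positive, with a median r of 0.875, and 27 (75.0%) were above 0.8, against 3.56%. The median r over all pairs of tested genes was 0.0025 and -0.0025, and 50.2% and 49.8% of those pairs were positive. With Benjamini-Hochberg adjustment over the 72 pairs, 4 passed 0.05 for *Gadd45a*-WT and 13 for *Gadd45a*-KO by exact permutation of Pearson's r, and 0 of 72 did by Spearman's rho, whose median was 0.771 in each label. These counts moved with the scale, to 9 for *Gadd45a*-WT with CPM scaled by library totals and to 3 for *Gadd45a*-KO on the CPM scale without logs.

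The tightest pair for the label *Gadd45a*-WT was *Prox1* with *Dsp* (r = 0.985, exact permutation p = 0.00139, the smallest 6 libraries can give, adjusted p = 0.0286; rho = 1.00, exact p = 0.00278), and r was 0.962 without the pair of libraries farthest from the *Prox1* median. In the same libraries r was 0.937 for *Prox1* with *Dock10* and 0.961 for *Dsp* with *Dock10* (exact permutation p = 0.00278, adjusted p = 0.0286 and rho = 0.943, exact p = 0.0167, for both), and 0.939 and 0.928 without the farthest libraries. For the label *Gadd45a*-KO the tightest were *C1ql3* with *Plk5* (r = 0.992) and *Dsp* with *Tdo2* (r = 0.983), with exact permutation p = 0.00278, adjusted p = 0.0286 and rho = 0.943 (exact p = 0.0167) for both. Without the farthest libraries their r was 0.897 and 0.905. Over all 36 pairs the median r without the 2 farthest libraries was 0.874 for *Gadd45a*-WT and 0.529 for *Gadd45a*-KO. Of the 36 pairs, 31 and 26 were then positive. Without replicate 4 alone, the median r for *Gadd45a*-KO was 0.757, close to that of the other label, so that part of the *Gadd45a*-KO value rests on that library. Whether the correlations differ between the labels was not tested.

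**Figure D4:**
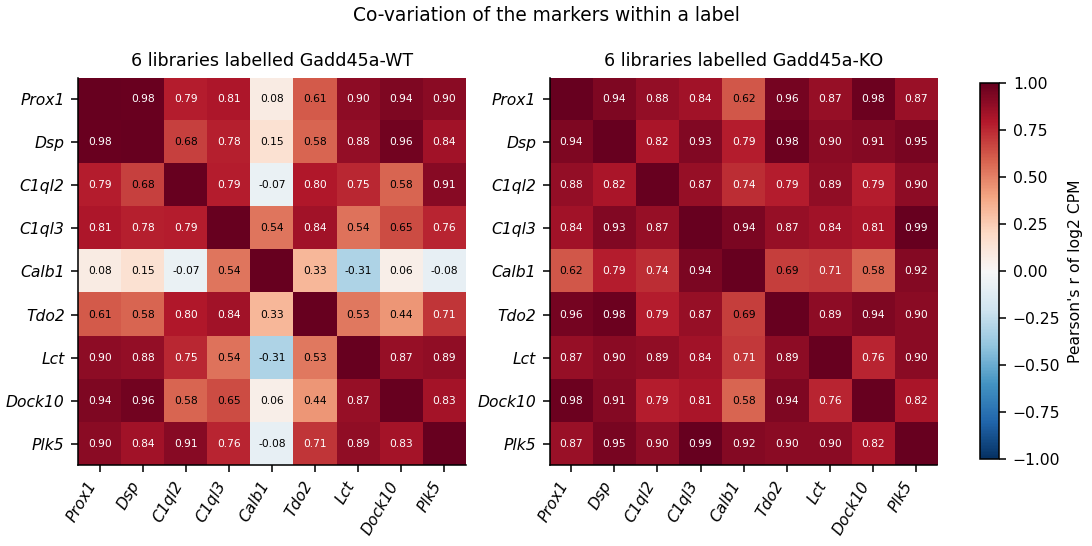
Pearson's r of log2 CPM for each pair of markers over the 6 libraries of a label, *Gadd45a*-WT at left and *Gadd45a*-KO at right, from blue (negative) to red (positive). *Calb1* forms the pale row and column at left, with r from -0.31 to 0.54, while the other 28 pairs reach from 0.44 upward at left and from 0.76 upward at right.

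*Calb1* was the exception. In the libraries labelled *Gadd45a*-WT its r with the other 8 markers ran from -0.31 (*Lct*) to 0.54 (*C1ql3*), with a median of 0.0723, while the 28 pairs without *Calb1* had a lowest r of 0.444. In those labelled *Gadd45a*-KO its median r was 0.724, and 1 of its 8 pairs, that with *C1ql3*, passed the adjusted threshold (r = 0.944, exact permutation p = 0.00972, adjusted p = 0.0467; rho = 0.943, exact p = 0.0167; r = 0.976 without the farthest libraries). The 28 other pairs there had r of at least 0.761.

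Setting each gene against the mean of the other 8 in the same library took out most of the shared variation. On the log2 CPM scale, the standard deviation within a label fell from 0.32 to 0.11 for *Prox1*, from 0.35 to 0.12 for *Dsp* and from 0.27 to 0.11 for *C1ql3*. It fell for 8 of the 9 and rose for *Calb1*, from 0.19 to 0.26. By this ratio, *Dock10* differed between the labels by -0.15 (exact permutation p = 0.102) and *Prox1* by -0.10 (exact permutation p = 0.158), and the other 7 had larger p. Before this step the markers varied within a label by a median standard deviation of 0.32 (log2 CPM), against 0.12 over all tested genes.

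The promoters of *Prox1*, *Dsp* and *Dock10* are shown because these genes had r above 0.9 with each other in both labels. For *Gadd45a*-KO none of the 3 pairs passed the adjusted threshold by exact permutation, and without the farthest libraries r was 0.184 for *Prox1* with *Dsp*, 0.460 for *Prox1* with *Dock10* and 0.811 for *Dsp* with *Dock10*. Windows of 300 bases, from 250 before to 50 after a gene's start, were taken from RefSeq (GRCm38.p6) and matched 8 of the 9 markers. In capitals is the GC box GGGCGG or its reverse complement CCGCCC, which held no base in common with the other motifs searched, CAGATG (an E-box) and TATAAA, each on both strands. The windows lie at chr1:190170778-190171077 on the minus strand for *Prox1*, chr13:38151044-38151343 on the plus strand for *Dsp* and chr1:80758504-80758803 on the minus strand for *Dock10*.
Prox1: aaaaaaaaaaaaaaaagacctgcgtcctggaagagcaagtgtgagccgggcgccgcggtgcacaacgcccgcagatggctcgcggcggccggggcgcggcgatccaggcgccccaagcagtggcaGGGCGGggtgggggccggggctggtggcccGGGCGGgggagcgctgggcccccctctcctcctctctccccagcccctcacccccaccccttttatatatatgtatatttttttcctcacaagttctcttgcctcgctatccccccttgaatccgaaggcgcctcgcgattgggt
Dsp: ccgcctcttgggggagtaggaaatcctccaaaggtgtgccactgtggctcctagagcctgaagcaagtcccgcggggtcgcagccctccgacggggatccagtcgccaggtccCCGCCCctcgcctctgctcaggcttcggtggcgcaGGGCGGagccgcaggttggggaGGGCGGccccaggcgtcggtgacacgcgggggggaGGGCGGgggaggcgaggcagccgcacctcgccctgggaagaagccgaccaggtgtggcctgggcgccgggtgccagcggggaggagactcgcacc
Dock10: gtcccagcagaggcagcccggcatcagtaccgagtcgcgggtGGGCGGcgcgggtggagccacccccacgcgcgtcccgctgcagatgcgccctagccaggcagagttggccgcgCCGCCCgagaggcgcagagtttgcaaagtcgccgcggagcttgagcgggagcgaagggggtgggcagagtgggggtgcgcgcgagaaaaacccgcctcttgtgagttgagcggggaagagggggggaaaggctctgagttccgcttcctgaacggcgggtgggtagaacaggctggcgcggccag

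These windows held 2, 4 and 2 GC boxes. Over the 10 windows of the 8 matched markers, 7 held at least 1, in *Prox1*, *Dsp*, *C1ql2*, *C1ql3*, *Dock10* and *Plk5*, against 35.7% of all 32851 windows in the table. CAGATG or its reverse complement stood in windows of *Prox1* and *Dock10*, 3 of the 10, against 17.2% of all windows. TATAAA stood in those of *Prox1* and *Tdo2*, 2 of the 10, against 13.6%. *Lct* held none of the 3 motifs. These matches describe the letters of the windows, and those shown are rich in G and C for *Dsp* (73.0%) and *Dock10* (70.0%) beside a median of 52.7% over all windows. *Prox1* and *Dock10* each had another window, which is not shown. It held 1 GC box at 57.3% G and C for *Prox1*, and 0 at 43.7% for *Dock10*.

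Outside the list, the genes whose library-to-library pattern was most like that of the markers were sought among the 16390 other tested genes, by Pearson's r over the 12 libraries between a gene's log2 CPM, centred within its label, and the mean standardised deviation of the 9. The closest 5 were *Npnt* (r = 0.986), *Pdyn* (0.983), *Lrrtm4* (0.977), *Tiam2* (0.975) and *Btg2* (0.971), and their r lay between 0.947 and 0.981 without replicate 4 labelled *Gadd45a*-KO. *Npnt* encodes the matrix protein nephronectin, *Pdyn* prodynorphin, an opioid peptide precursor stored in mossy fibres, *Lrrtm4* a postsynaptic adhesion protein, *Tiam2* an exchange factor for Rac and *Btg2* an antiproliferative factor induced by activity. The lincRNA *Gm17566* was next, at rank 6 (r = 0.969). Over all other genes the median r was -0.01 and 1.89% were above 0.8.

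*Pdyn* ran from 13.1 to 20.6 CPM for the label *Gadd45a*-WT and from 9.44 in replicate 4 to 22.8 CPM for *Gadd45a*-KO. The 15 further genes listed for the granule cell layer followed as well, 11 of 15 having r above 0.8, with a median of 0.879 and a lowest value of 0.266 (*Il16*). In the label comparison 0 of 15 passed 1% FDR by edgeR or DESeq2, with 1 at an unadjusted edgeR p under 0.05, and their median log2 fold change was -0.08, or 0.02 without replicate 4. *Rfx3*, a transcription factor gene, had the largest difference among them (log2 fold change -0.30, SE 0.12, edgeR, adjusted p = 0.267), followed by *Glis3*, also a transcription factor gene (-0.24, SE 0.13, edgeR, adjusted p = 0.465). For 12 of these 15, replicate 4 labelled *Gadd45a*-KO was the lowest of the 12 libraries.

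Markers of other cells showed how the libraries differed in what else they held. In replicate 4 labelled *Gadd45a*-KO, the median log2 deviation from the mean of the 12 libraries was -0.66 for the 9 granule cell markers and -0.63 for the 15 further ones. In that library it was 0.05 for the tested CA pyramidal markers, 0.04 for the astrocyte markers and 0.31 for the interneuron markers. It was 0.13 for the relatives and partners of the C1q-like proteins. Below 0 as well were the hilar mossy cell (-0.31), thalamic (-0.49), oligodendrocyte (-0.19), choroid plexus (-0.11) and immature granule cell (-0.08) lists. Each of these lists was lower still in some other library. CA pyramidal markers summed to 757 CPM in replicate 4 labelled *Gadd45a*-KO, the most of any library, where the other libraries had 503 to 690. That sum was carried by *Wfs1*, *Fibcd1* and *Rgs14* (209, 208 and 164 CPM), whereas *Pcp4*, at 24.6 CPM, was at its lowest of the 12 libraries there. The 9 thalamic markers summed to 560 CPM in replicate 3 labelled *Gadd45a*-KO and 371 CPM in replicate 2, against 126 to 168 CPM in the other 10 libraries. Oligodendrocyte markers summed to 7311 CPM in replicate 3, against 2317 to 3738 elsewhere. Choroid plexus markers summed to 82.4 CPM in replicate 3 and 78.0 CPM in replicate 1 labelled *Gadd45a*-KO. The other libraries of that label had 30.4 to 54.1 CPM, and those labelled *Gadd45a*-WT 37.6 to 64.9 CPM. No marker on these lists was at 0 in all libraries. CPM are relative to the scaled total of a library, and the part of dissection or cell composition in the marker levels was not tested.

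**Figure D5:**
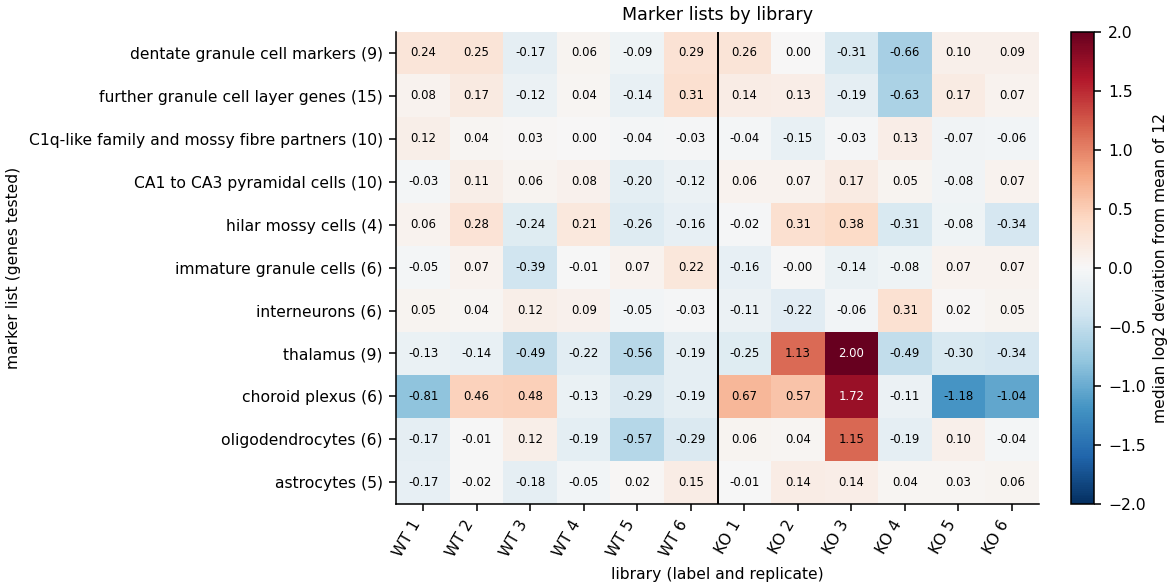
Median log2 deviation of each marker list from the mean of the 12 libraries, 1 row per list with the number of tested genes and 1 column per library, labelled *Gadd45a*-WT at left and *Gadd45a*-KO at right of the line. The 2 granule cell lists are bluest in KO replicate 4 (-0.66 and -0.63), and the thalamic list is reddest in KO replicates 2 and 3 (1.13 and 2.00).

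None of these other lists held a gene at 1% FDR by edgeR or DESeq2. For the 9 thalamic markers the median log2 fold change was 0.91, with 6 of 9 at an unadjusted edgeR p under 0.05, and 0.01 without replicates 2 and 3 labelled *Gadd45a*-KO. *Tcf7l2*, a thalamic transcription factor gene, and *Synpo2* had the largest, 1.56 (SE 0.55, edgeR, adjusted p = 0.180) and 1.55 (SE 0.54, edgeR, adjusted p = 0.166). The 6 oligodendrocyte markers had a median of 0.45, all 6 at an unadjusted p under 0.05, led by the myelin genes *Mag* (0.49) and *Mog* (0.45), and a median of 0.17 without those libraries. Choroid plexus markers, led by *Otx2* (1.65) and *Folr1* (0.59), had a median of 0.53 and of -0.14 without them, with 1 of 6 at an unadjusted p under 0.05. Both named genes were low, with means by label (*Gadd45a*-WT, then *Gadd45a*-KO) of 0.34 and 1.05 CPM for *Otx2* and 0.34 and 0.51 CPM for *Folr1*. *Otx2* had 2.66 and 2.58 CPM in replicates 2 and 3 labelled *Gadd45a*-KO. Hilar mossy cell markers had a median of 0.11, with *Calb2* at 0.29 and *Csf2rb2* at -0.21 and 0 of 4 at an unadjusted p under 0.05, and the median was -0.15 without replicates 2 and 3 labelled *Gadd45a*-KO. *Calb2* had 25.4 and 13.6 CPM in those 2 libraries, against 4.28 to 11.9 CPM for the label *Gadd45a*-WT. CA pyramidal markers had a median of 0.12, led by *Pcp4* (0.32) and *Wfs1* (-0.25), interneuron markers one of -0.04, led by *Sst* (-0.17) and *Gad2* (-0.08), and astrocyte markers one of 0.11, led by *Gfap* (0.21) and *Aldh1l1* (0.15), with 1 of 10, 0 of 6 and 2 of 5 at an unadjusted p under 0.05. *Pou3f1*, listed for CA pyramidal cells, was not tested, with at most 6 reads.

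Markers of immature granule cells, the young neurons born in the adult dentate gyrus, gave low and scattered values. These 6 genes summed to 42.9 to 49.0 CPM for the label *Gadd45a*-WT and 38.9 to 47.6 CPM for *Gadd45a*-KO. The median log2 fold change was 0.17, with 3 of 6 below 0. The largest were *Tac2* (0.65, SE 0.31, edgeR, adjusted p = 0.380) and *Igfbpl1* (0.57, SE 0.24, edgeR, adjusted p = 0.310), at means of 1.90 and 0.89 CPM for *Gadd45a*-KO. *Dcx*, with means of 17.2 CPM for *Gadd45a*-WT and 14.6 CPM for *Gadd45a*-KO, went the other way (-0.24, SE 0.09, edgeR, adjusted p = 0.203). *Sox11* was also lower (-0.28, edgeR, adjusted p = 0.569). *Dcx* and *Igfbpl1* were the 2 of 6 at an unadjusted edgeR p under 0.05, and 0 of 6 passed 1% FDR by edgeR or DESeq2. The pattern of the 6 genes across libraries was unlike that of the mature markers, with a median r of 0.227 and 1 of 6 above 0.8. That gene, *Neurod1* (r = 0.948), a proneural transcription factor gene that mature granule cells also express, was named after its value was seen.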

How the data were processed

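Hippocampal poly(A) RNA of 6 mice labelled *Gadd45a*-WT and 6 labelled *Gadd45a*-KO had been sequenced as stranded single reads of 51 bases. The authors aligned the reads to NCBIM37/mm9 with TopHat 1.4.1, counted them per Ensembl gene and strand with HTSeq 0.5.4p3, and deposited whole counts for each animal, not normalized. Each replicate is a separate mouse per the labels. Of 37991 gene IDs, 37205 matched GENCODE annotation of NCBIM37, the source of names, lengths and positions.

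Counts were filtered, TMM-scaled and compared without covariates in edgeR 4.0.16 (R 4.3.3; 16399 genes tested, 1% FDR as in the study's methods), whose SE is the log2 fold change over the root of the quasi-likelihood F statistic. Log2 CPM used a prior count of 2. DESeq2 1.42.0 and other alternatives are in the closing section. Python 3.11.15 and scipy 1.17.1 served for the exact permutation tests (smallest p 0.00216 between labels and 0.00139 for a correlation). One read equals 0.0180 CPM in the deepest library. For the 9 markers, with at least 318 reads in every library, counting error is small beside the spread between animals. It is larger for listed genes with few reads, such as *Folr1* with at most 74 in any library. The markers and all gene lists were chosen with earlier results of these data known. Named besides the 9 markers and *Gadd45a* are the largest 2 log2 fold changes of each list, genes overlapping a marker and the 5 most alike. *Il16*, *Neurod1*, *Dcx*, *Sox11*, *C1ql4*, *Pou3f1*, *Fibcd1* and *Rgs14* were named after their values were seen. The procedure was tested on simulated counts. Reads within transcripts were not analysed here.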

Additional observations from a re-analysis of the deposited data

How the results depend on the processing

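No marker passed 1% FDR under any alternative run (DESeq2, RLE factors, a minimum of 10 counts per library or no filter, 5% FDR, length offset, replicate block, each library left out, and without *Gadd45a*-KO replicates 2 and 3, the last chosen after seeing the data), and the smallest adjusted p was 0.0733 (*Calb1*, replicate block). The alternatives reuse the same libraries, and at 5% FDR the main values are repeated, so they are not separate observations. Of 189 log2 fold changes of markers under them, 187 were below 0. The exceptions were *C1ql2* without *Gadd45a*-WT replicate 1 (0.0704) and without *Gadd45a*-KO replicate 4 (0.00111), with single libraries left out spanning -0.199 to 0.0704. Leaving out 1 library at a time moved the median of the markers between -0.26 and -0.06. The exact test of *Dock10* lost its threshold with library totals (-0.33, p = 0.0628). Pairs past the adjusted threshold numbered 9 with library totals (*Gadd45a*-WT) and 3 on the CPM scale (*Gadd45a*-KO). With 1 library left out, the median r ran from 0.718 to 0.797 (*Gadd45a*-WT) and from 0.757 to 0.910 (*Gadd45a*-KO). With the longest transcript, 5 of 9 kept their rank.

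Over all tested genes, 430 were lower and 4 higher at 1% FDR. The counts were 272 and 9 with the length offset, 10 higher with length offset and replicate block, 661 and 19 by DESeq2, 726 and 20 at 5% FDR, and 199 lower without replicates 2 and 3. With 1 library left out, 239 to 467 were lower, and the count fell by more than 1.5 times without replicates 3, 5 or 6 of *Gadd45a*-WT (268, 239, 261) or 1, 2 or 6 of *Gadd45a*-KO (248, 276, 248). The cause was not tested. The labels give same-numbered libraries nothing in common but the number. Their deviations correlated at 0.127, 0.245, 0.262, 0.179, 0.103 and -0.0761 for replicates 1 to 6. Replicates 1, 2 and 3 labelled *Gadd45a*-KO and replicate 3 labelled *Gadd45a*-WT correlated best with their own number, and the others did not. Whether same-numbered libraries have anything else in common was not tested. The replicate block gave 509 lower and 5 higher genes, and 4 markers at an unadjusted p under 0.05 in place of 1. The share of all tested genes at that p under the block was not counted, so these 4 have no background to be set against. With 6 animals per label, the 95% interval was narrowest for *Calb1* (-0.38 to 0.02) and widest for *C1ql2* (-0.54 to 0.34).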
